A study of Mus musculus with 3 samples.

Results

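Of the mouse genes measured in a macrophage line during its response to lipopolysaccharide (LPS), 9 that handle iron or encode acute-phase proteins are described here. They were chosen by name: Lcn2, Saa3, Hp, Slc11a1, Slc11a2, Slc40a1, Tfrc, Fth1 and Ftl1. Every probe set annotated to 1 of them was read, which gave 17 probe sets for 8 of the 9 genes, among 22690 probe sets and 12393 named genes in all. The 3 probe sets of Ftl1 are annotated to other genes as well and are given apart. RAW264.7 is a cell line from a tumour of a male BALB/c mouse, and LPS is a bacterial cell wall lipid that activates macrophages through Toll-like receptor 4. Expression was measured on 1 Affymetrix-type array of untreated cells (0 h) and 1 array each after 2 and 12 h of LPS, with no replicates and no untreated culture at 2 or 12 h. LPS and time in culture therefore cannot be told apart in a difference from 0 h, and no test or p-value was possible. BALB/c mice carry a variant of Slc11a1 that impairs its protein, which limits this line as a model of that transporter. The arrays measure its message only.

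Macrophages recycle iron from old red cells and also starve invading microbes of it. Iron enters cells bound to transferrin through the transferrin receptor, crosses endosomal and phagosomal membranes through divalent metal transporters, is stored in ferritin and leaves through ferroportin. During infection, secreted proteins such as lipocalin 2 and haptoglobin bind iron-carrying molecules outside the cell. Much of the control of ferritin, ferroportin and transferrin receptor acts on the stability or translation of existing messages through iron regulatory proteins, and transcript arrays show only part of it.

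Signals are linear intensities scaled so that each array has the same trimmed mean. A floor was set at 34.96, and a gene under it on 1 array of a pair has only a bound ("at least"). A gene was called higher or lower when its signals differed at least 2-fold. The only error these arrays hold is the disagreement between probe sets of a gene, with an SD on the log2 scale of 0.32 at 2 h and 0.34 at 12 h, both from 0 h, and of 0.31 between the LPS times. The spread between cultures was not measured. Of 9 macrophage markers, 8 were above the floor on all 3 arrays, and only Mertk was under it. Of 18 probe sets for prokaryotic spike controls, all 18 were brighter at 12 h than at 0 h, by a median of 2.52-fold, whereas the median ratio was 0.99 at 2 h. How the spikes were added is not given in the sources used here, and their part in the 12 h values was not tested. Setting the arrays to them would move the median gene at 12 h against 0 h from -0.05 to -1.27 on the log2 scale.

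Relative to the other genes of each array, Lcn2, Saa3, Slc11a1 and Slc11a2 were higher after 12 h of LPS, Slc40a1 was close to 2-fold lower at both times, and Fth1 and Tfrc differed little. Of the 7 genes measured at 12 h, 4 were past 2-fold over 0 h, beside 3.01% of all 8629 genes measured. With the arrays set to the spikes, 2 remained (Lcn2 and Saa3), and Fth1, Slc40a1 and Tfrc were at least 2-fold lower, as were 68% of all genes. None of the 7 was 2-fold lower in the reported setting, beside 2.4% of all genes. At 2 h, 2 of 6 measured genes were higher (Saa3 and Slc11a2), beside 2.09% of 8422, and 1 was lower (Slc40a1), beside 1.69%. From 2 to 12 h, 3 of 7 were higher (Lcn2, Saa3 and Slc11a1), beside 2.65% of 8467, and none was lower, beside 1.98%. The median log2 difference of the measured genes was 0.30 at 2 h and 1.53 at 12 h, and that of all genes was -0.10 and -0.05. The genes were named with earlier results of these arrays known, so their share of calls is a description. The number of all genes called depended on the scaling: at 2 h, 176 were higher and 142 lower as reported, and 225 and 73 with arrays set to their medians. Between 2 and 12 h the split was 224 to 168 as reported and 178 to 226 with medians. With the spikes it was 49 to 6169 at 12 h against 0 h.

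**Figure D1:**
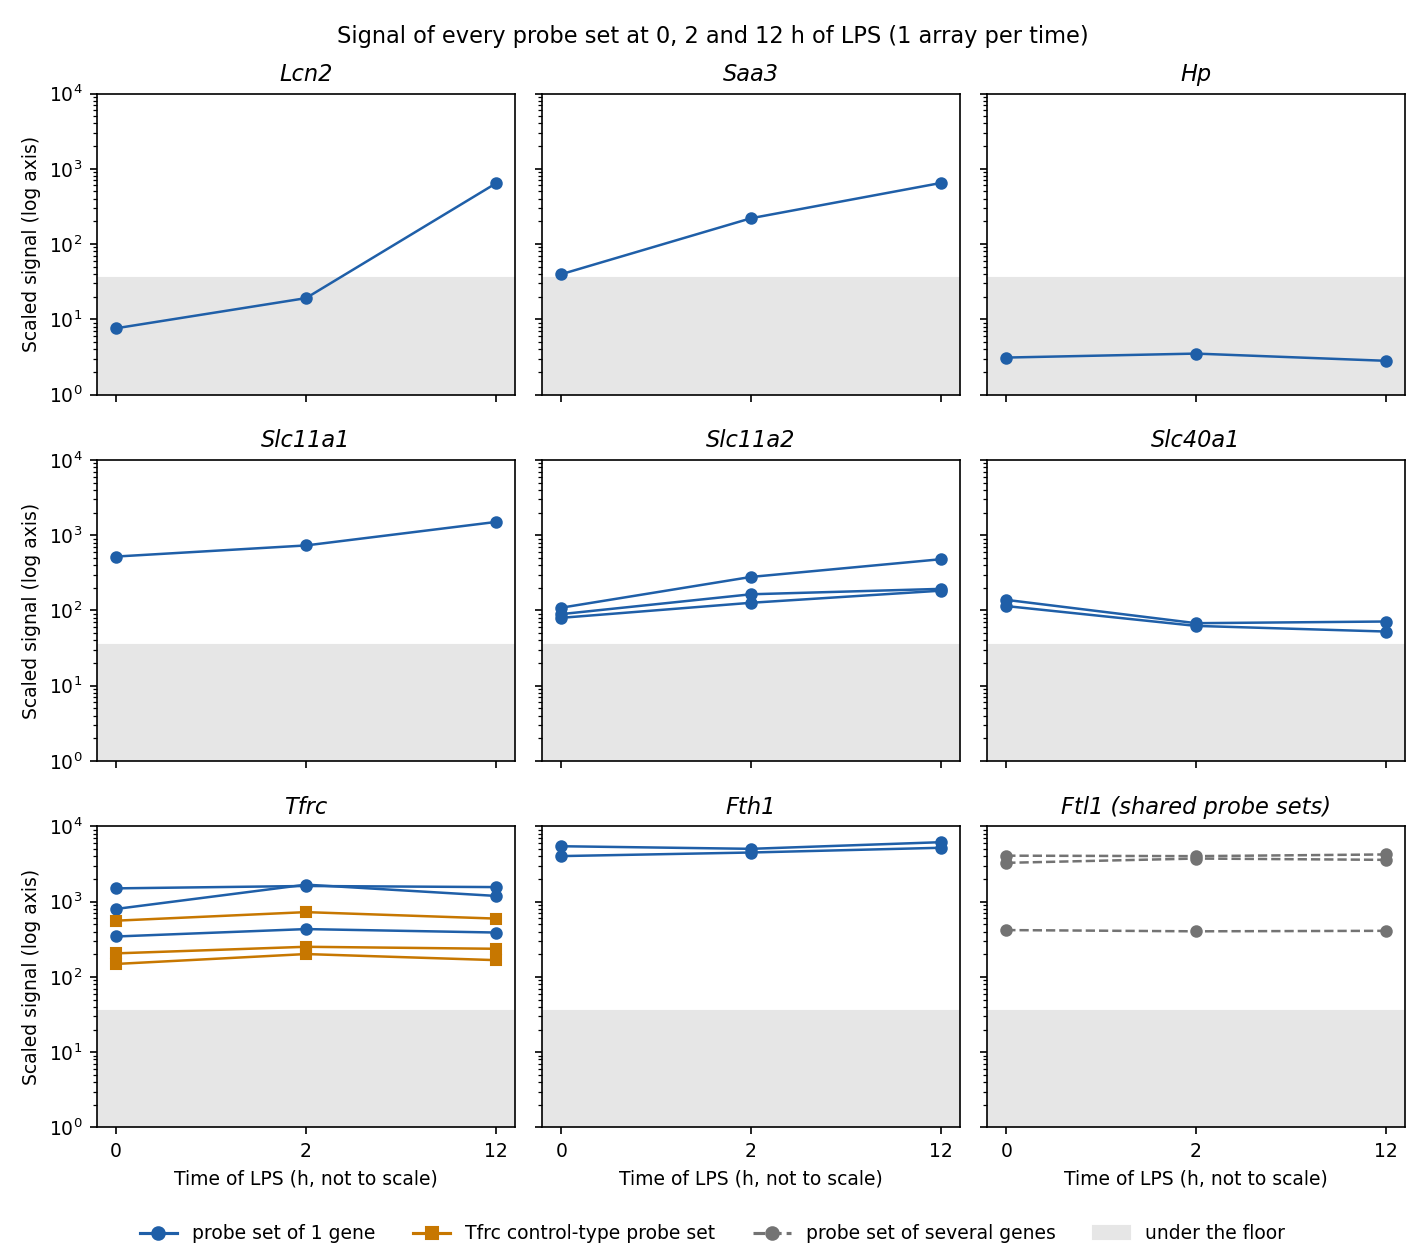
Scaled signal on a log axis against time of LPS (0, 2 and 12 h, drawn at equal steps) for every probe set, 1 array per time; each line is a probe set and grey marks the range under the floor of 34.96. Lcn2 leaves that range only at 12 h, Hp never does, the 3 lines of Slc11a2 are higher at each later time, the 2 lines of Slc40a1 are lower after LPS, those of Fth1 run close to level, and so do those of Tfrc except 1 that is 2.10-fold higher at 2 h than at 0 h.

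Lcn2, Saa3 and Slc11a1 are the genes called higher whose promoters the RefSeq-derived table of build GRCm38.p6 holds, and the 250 bases before each start site are printed for that reason. Slc11a2, Slc40a1 and Hp have no entry. Capitals mark matches on either strand to the C/EBP motif TTNNGNAA, where N is any base. The Lcn2 window is chr2:32387740-32387989 on the minus strand, the Saa3 window chr7:46715677-46715926 on the minus strand, and the Slc11a1 window chr1:74374953-74375202 on the plus strand.
Lcn2: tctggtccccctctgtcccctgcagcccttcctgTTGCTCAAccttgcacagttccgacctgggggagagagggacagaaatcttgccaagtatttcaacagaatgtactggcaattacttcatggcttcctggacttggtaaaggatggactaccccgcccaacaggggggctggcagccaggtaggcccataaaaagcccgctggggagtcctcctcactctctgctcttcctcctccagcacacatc
Saa3: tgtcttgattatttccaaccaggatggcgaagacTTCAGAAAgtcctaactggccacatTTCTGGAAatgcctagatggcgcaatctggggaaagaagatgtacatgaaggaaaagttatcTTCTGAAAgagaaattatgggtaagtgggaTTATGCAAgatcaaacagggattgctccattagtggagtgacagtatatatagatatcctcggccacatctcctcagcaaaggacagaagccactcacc
Slc11a1: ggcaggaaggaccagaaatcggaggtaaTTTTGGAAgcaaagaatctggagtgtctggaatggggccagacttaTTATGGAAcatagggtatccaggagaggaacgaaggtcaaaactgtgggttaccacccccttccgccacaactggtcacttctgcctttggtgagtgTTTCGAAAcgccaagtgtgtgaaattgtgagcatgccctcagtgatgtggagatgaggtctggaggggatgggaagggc

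The Lcn2 window held 1 such match, 216 to 209 bases before the start. Saa3 held 4, the nearest at 99 to 92 bases, and Slc11a1 held 3, the nearest at 79 to 72 bases. At least 1 match stood in 36.8% of the 32851 windows of this length in the table, so a match sets these promoters apart little. Neither the 10-base NF-kB consensus, found in 7.25% of windows, nor the antioxidant response element TGACNNNGC, found in 10.2%, matched in any of the 3 on either strand. None of these motifs overlapped another there. Among genes measured but not called higher, the windows of Fth1 held C/EBP matches too, whereas the 2 windows of Tfrc held none of the motifs. The window of Ftl1, which has no probe set of its own and could not be called, held a C/EBP and an NF-kB match. A missing match says only that these letters are not in the window.

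Among the secreted proteins, Lcn2 encodes lipocalin 2, which binds bacterial siderophores and so keeps iron from microbes. Its probe set gave signals of 7.59 at 0 h, 19.1 at 2 h and 637 at 12 h. It was under the floor on the first 2 arrays, so no difference between them can be read, and at 12 h it was at least 18.2-fold higher than at either earlier time. This was the highest rank of 8467 genes between 2 and 12 h and the seventh of 8629 between 0 and 12 h. The size rests on the floor: the log2 bound was 4.19 as reported, 5.88 with the floor at the 20th percentile and 2.91 at the 60th. Lcn2 is also a neutrophil granule gene, and 8 of 9 listed neutrophil markers were on the array, with summed signals of 221, 197 and 280 at 0, 2 and 12 h. Of these, S100a9, Camp and Cxcr2 were under the floor on all arrays. Mpo, at 66.2, 49.1 and 59.2, and Ngp, at 57.7, 52.2 and 48.7, were above it on all 3. Elane read 37.1, 8.19 and 42.3, and S100a8 and Ltf were above the floor only at 12 h, at 40.4 and 44. Their part in the Lcn2 value was not tested.

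Saa3 encodes a serum amyloid A made mainly outside the liver, macrophages included. Its signals were 39.7, 220 and 647 at 0, 2 and 12 h, each time above the last. It was 5.55-fold higher at 2 h than at 0 h, and a further 2.94-fold higher at 12 h than at 2 h. In log2 terms 2.47 of the 4.03 gained by 12 h was present at 2 h, whereas Lcn2 showed no measurable signal then. Because the 0 h signal lay just above the floor, the 2 h difference dropped to 1.38 under a floor at the 60th percentile and to 1.77 with a pseudocount. The 12 h difference was 2.93 and 3.19 in those settings. With arrays set to the spikes it was 2.65, and the step from 2 to 12 h was 0.19 in place of 1.56.

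Hp encodes haptoglobin, the plasma protein that captures free haemoglobin. Its probe set read 3.10, 3.50 and 2.80 at the 3 times, all far below the floor. Its ability to detect the Hp message was not tested, so a change in this gene cannot be seen here. Of 5 hepatocyte markers on the array, Apoa1, Apob and Ttr were under the floor on all arrays. Cyp2e1 was just above it on all 3, at 45.4, 42.2 and 42.7, and Alb read 52.2, 21.1 and 34.6.

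Slc11a1, also called Nramp1, encodes a transporter that removes metal ions from the phagosome of macrophages. At 0, 2 and 12 h it read 521, 731 and 1500. It was 1.40-fold higher at 2 h, short of the 2-fold that counts, and 2.88-fold higher at 12 h. Most of that difference lay after 2 h, with a 2.05-fold step from 2 to 12 h. The 12 h against 0 h log2 difference stayed between 1.46 and 1.57 under the other scalings and a pseudocount, but was 0.15 with arrays set to the spikes. The other floors and probe set rules could not change it, because its 1 probe set lay above every floor tried. The step from 2 to 12 h was under 2-fold with arrays set to their medians (log2 0.94), and turned to -0.33 with the spikes.

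Slc11a2 encodes DMT1, the divalent metal transporter that carries iron out of the endosome into the cytosol. It was read by 3 probe sets, and all 3 were higher at each later time. The brightest, 1452078_a_at, gave 109, 279 and 480 at 0, 2 and 12 h, which was 2.56-fold and 4.41-fold over 0 h. The probe set 1426441_at, annotated to the same source sequence, gave 89.4, 164 and 194. The probe set 1417584_at gave 79.8, 127 and 183. At 12 h all 3 were at least 2-fold higher, by 2.17-fold to 4.41-fold, but at 2 h only the brightest was, and the range was 1.58-fold to 2.56-fold. The highest and lowest 12 h values were 1.03 apart on the log2 scale. The SD between probe sets of 0.34 is that of 1 probe set about its gene. A range over 3 probe sets is usually wider than that SD, so the 2 values cannot be compared directly. Whether the 3 probe sets detect different transcripts of Slc11a2 was not tested. With arrays set to the spikes the 12 h log2 difference of the brightest was 0.77 in place of 2.14, and its step from 2 to 12 h turned to -0.58.

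Slc40a1 encodes ferroportin, the only known iron exporter of mammalian cells. Its brighter probe set gave 138, 67.8 and 71.3 at 0, 2 and 12 h. The other gave 114, 62.4 and 52.5. Both were therefore lower at each LPS time than at 0 h, and both stayed above the floor. At 2 h the decreases were 2.04-fold and 1.83-fold, and at 12 h 1.94-fold and 2.18-fold. The gene thus lay at the edge of the 2-fold limit. The brighter probe set, by which it was read, passed 2-fold at 2 h only, and the other at 12 h only. As reported, the gene therefore counted as lower at 2 h and not at 12 h. Over the other scalings, floors, pseudocount and probe set rules tried, its log2 difference ran from -1.03 to -0.71 at 2 h and from -1.04 to -0.71 at 12 h. With the floor at the 60th percentile (84.6), both LPS signals were under it, so the -0.71 there is a bound at both times. A pseudocount, which also shrinks differences of low signals, gave -0.75 at 2 h and -0.71 at 12 h. Its 2 h difference was the 115th lowest of 8422 genes. From 2 to 12 h the log2 differences were 0.07 and -0.25, within the SD between probe sets. With arrays set to the spikes the 12 h log2 difference was -2.33.

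Tfrc encodes the transferrin receptor, the route by which most cells take up iron. It was read by 6 probe sets, 3 of them among the control probe sets of the array. All 6 were higher at 2 h than at 0 h, by 1.08-fold to 2.10-fold, and all 6 were lower at 12 h than at 2 h. The largest difference was in 1422966_a_at, with signals of 801, 1684 and 1193 at 0, 2 and 12 h. Its companion 1422967_a_at, annotated to the same source sequence, gave 345, 432 and 389. The brightest, 1452661_at, gave 1503, 1616 and 1562. Only 1 of the 6 reached 2-fold at 2 h and none did at 12 h. The gene was not called because its brightest probe set, by which it was read, was 1.08-fold higher at 2 h and 1.04-fold at 12 h. The brightest probe set was at -0.0006 on the log2 scale at 2 h under quantile normalization, and the 12 h difference turned to -1.32 with the spikes. The ratio of the 3' to the 5' control probe set was 2.72, 2.89 and 2.52 at 0, 2 and 12 h, so the evenness of this message along its length varied little between arrays.

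Ferritin stores iron in a shell of heavy and light chains. Fth1 encodes the heavy chain, which oxidises iron as it enters. Its brighter probe set gave 5454, 5038 and 6172 at 0, 2 and 12 h, and the other gave 4033, 4502 and 5204. At 2 h they lay on opposite sides of 0 h, with log2 differences of -0.11 and 0.16. At 12 h both were higher, by 1.13-fold and 1.29-fold, in a range that includes the reference genes: the log2 difference was 0.21 for Gapdh and 0.19 for Actb. With arrays set to the spikes Fth1 was lower at 12 h, with a log2 difference of -1.20. Of the 3 probe sets annotated to the light chain gene Ftl1 together with its pseudogene Ftl1-ps2 or further genes, 1418364_a_at gave 4086, 4028 and 4242. The probe set 1422302_s_at gave 3281, 3743 and 3596, and 1422301_at gave 419, 404 and 410. Their log2 differences from 0 h lay between -0.05 and 0.19, and none is assigned to Ftl1 alone.

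**Figure D2:**
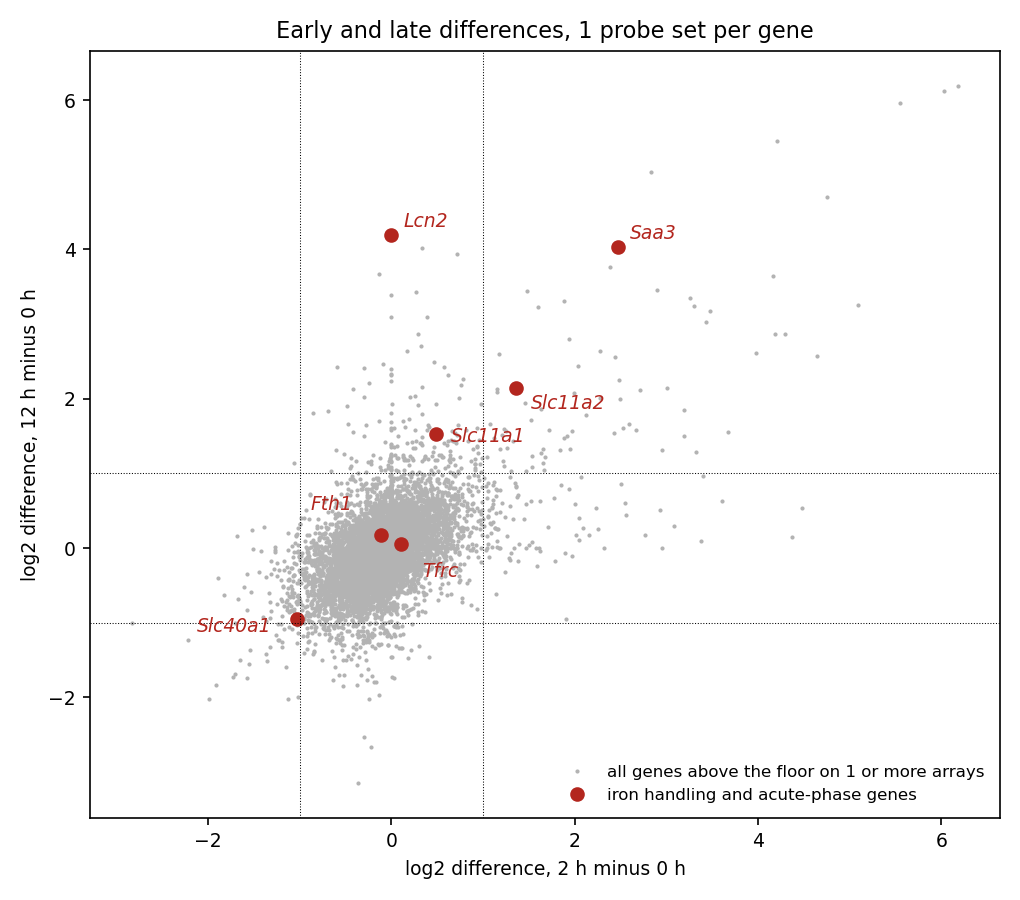
Log2 difference at 2 h (x axis) against that at 12 h (y axis), each from 0 h, by 1 probe set per gene; grey points are all genes above the floor on at least 1 array, red points the 7 genes measured, and dotted lines mark 2-fold. Lcn2 lies at 0 on the x axis because it was under the floor at 0 and 2 h; Saa3 and Slc11a2 are past 2-fold on both axes, and Fth1 and Tfrc lie within the main cloud.

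The genes nearest to each 2-fold gene were found by Euclidean distance over the 2 log2 differences of floored signals from 0 h, among 8738 genes and from 3 arrays. Nearest to Lcn2 were Pdpn (distance 0.38), Zbp1 (0.54) and Il1rn (0.76), and no gene lay within 0.25. Nearest to Saa3 were Il1a (0.27), Ccl3 (0.71) and Ccl2 (0.93), again with none within 0.25. Slc11a2 had 4 genes within that distance, the nearest being Ccl22 (0.03), Car13 (0.21) and Gch1 (0.21). For Slc11a1 there were 21, led by Pla2g5, Gbp3 and Dnmt3l. For Slc40a1 there were 67, led by Fam76b, Dnd1 and Vsig2. Of these neighbours, Il1a, Ccl22, Car13 and Gbp3 were under the floor at 0 h, Zbp1 at 2 h, and Dnd1 and Vsig2 at 2 and 12 h. Their differences are bounds, so their closeness rests on the floor. Lcn2 and Saa3 thus had fewer genes near them than Slc11a1 and Slc40a1. This distance follows the size of the differences, and large differences are rare among all genes, so these counts largely restate the fold values. The 2 h value of Lcn2 was set by the floor.

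Other genes of iron and heme handling differed little between the arrays, as did most genes. Of 58 listed, 47 were on the array and 9 were under the floor on all arrays. None of the 36 measured was 2-fold apart from 0 h in either direction at 2 h or at 12 h. Of all genes, 2.09% were higher and 1.69% lower at 2 h, and 3.01% and 2.4% at 12 h, so few calls would be due among 36. The list medians of -0.12 and -0.05 were near the -0.10 and -0.05 of all genes. Between 2 and 12 h, 1 of 38 measured was higher, beside 2.65% of all genes, and none was lower, beside 1.98%. It was Hmox1, the heme oxygenase that frees iron from heme, with signals of 323, 250 and 528, a 2.11-fold step. Ireb2 and Aco1, the genes of the iron regulatory proteins, read 229, 221 and 173, and 404, 319 and 356. Ncoa4, the receptor that delivers ferritin for breakdown, read 368, 318 and 348. Slc39a14, an importer of iron not bound to transferrin, read 219, 254 and 150. Hamp, the gene of the ferroportin ligand hepcidin, read 69.8, 57.7 and 60.2, and the ferroxidase gene Cp was under the floor on all arrays. The list median at 12 h was -1.40 with arrays set to the spikes, beside -1.27 for all genes.

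Of 34 other acute-phase genes, 30 were on the array, and 17 were under the floor throughout. At 12 h, 2 of 11 measured were higher and none lower, beside 3.01% and 2.4% of all genes, and the median was 0.24, beside -0.05 for all genes. Setting the arrays to the spikes turned that median to -0.85. Il1rn, the interleukin 1 receptor antagonist gene, read 196, 323 and 2994, and was 15.3-fold higher. Cfb, a complement factor of the alternative pathway, read 6.99, 13.6 and 107, at least 3.05-fold higher. At 2 h, 1 of 10 was higher, the metal-binding Mt2, with signals of 857, 1839 and 1259, beside 2.09% of all genes. The 2 h median was -0.07, or 0.72 with the floor at the 60th percentile, and lay between 0.04 and 0.07 with median scaling, quantile normalization or a pseudocount, so its sign is not settled.

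Of 23 listed regulators of these genes, cytokines and transcription factors chosen with their behaviour in these arrays known, 9 of 19 measured were higher at 2 h and 9 of 20 at 12 h, beside 2.09% and 3.01% of all genes. The medians were 0.67 and 0.83. A floor at the 60th percentile gave 0.18 at 12 h, and arrays set to the spikes turned it to -0.51. The 9 higher were Il1b, Tnf, Socs3, Cebpd, Nfkbiz, Nfkbia, Nfkb2, Rel and Myc at both times. Nfkbiz, an NF-kB cofactor known to act at the Lcn2 promoter, read 42.7, 1458 and 406. Cebpd, a C/EBP factor of the acute-phase response, read 121, 700 and 370. Both read highest at 2 h, when Lcn2 was under the floor, as did the others of the 9 except Il1b. The part of these regulators in the Lcn2 value was not tested. Cebpb read 488, 775 and 795 and stayed under 2-fold, and Cebpa, at 307, 313 and 92.3, was 3.33-fold lower at 12 h. Il6 read 2.80, 25.5 and 67.4, at least 1.93-fold higher at 12 h. Stat3, which carries the interleukin 6 signal, read 136, 110 and 143, and Nfe2l2, the NRF2 gene, 726, 661 and 446.

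**Figure D3:**
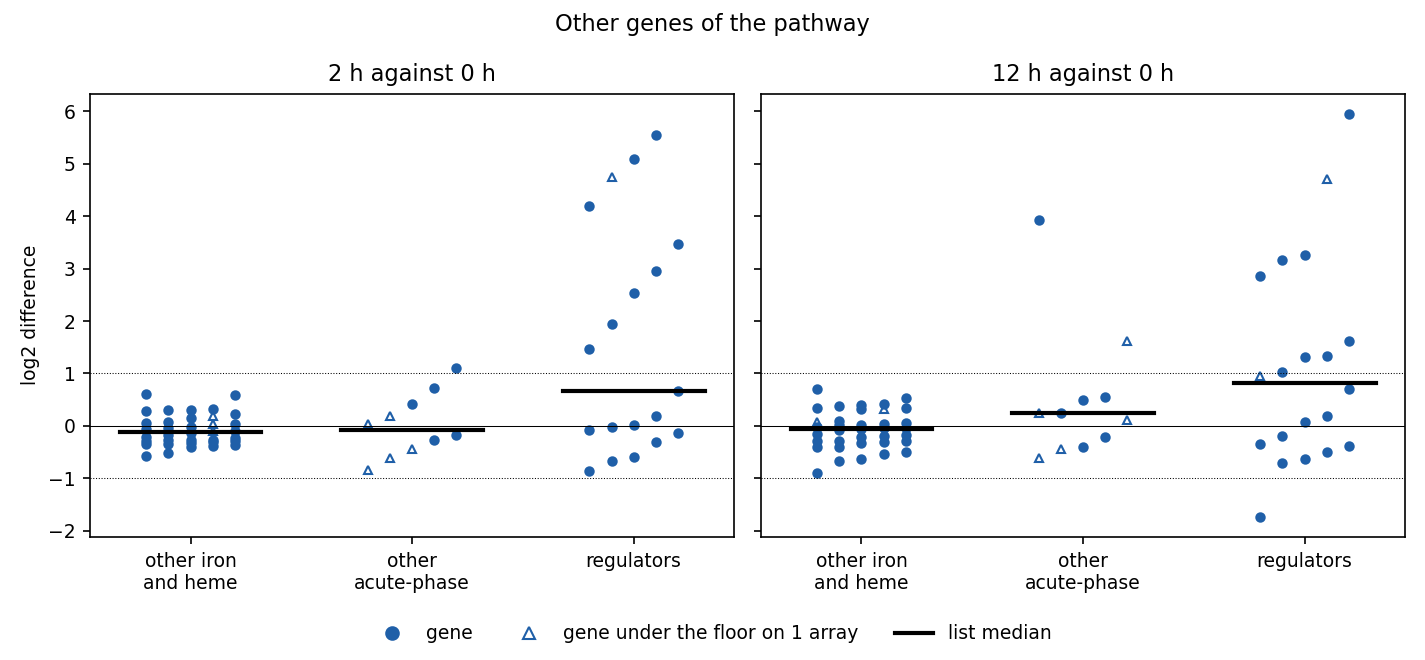
Log2 difference of each measured gene of the 3 lists at 2 h and at 12 h from 0 h; circles are genes above the floor on both arrays, triangles genes under it on 1, black bars the list medians and dotted lines 2-fold. The iron and heme genes all lie inside the 2-fold lines, while the regulators spread up to 5.55 at 2 h and 5.95 at 12 h.

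**Figure D4:**
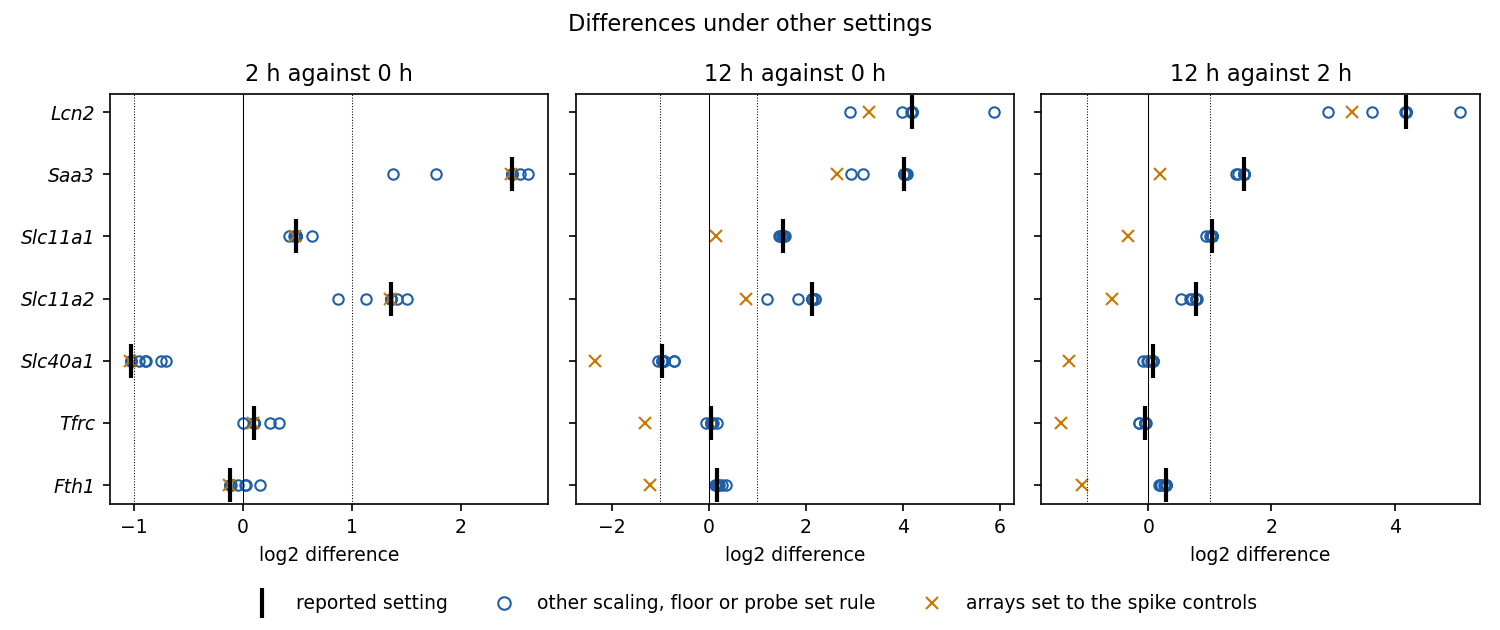
Log2 difference of the 7 measured genes in each comparison as reported (black bars), under other scalings, floors and probe set rules (open circles) and with arrays set to the spike controls (crosses); dotted lines mark 2-fold. Circles stay on the side of 0 of the reported value for Lcn2, Saa3, Slc11a1 and Slc11a2; the crosses lie below the bars in both comparisons of 12 h, and below 0 for Fth1, Slc40a1 and Tfrc in both and for Slc11a1 and Slc11a2 against 2 h.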

How the data were processed

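The values are linear intensity per probe set, as the authors deposited them, for 3 arrays, 1 per time; per the labels' protocols, target was made from 5 µg of total RNA. The sources used here do not give the LPS dose, the signal algorithm or the normalization. The deposited values had nearly equal trimmed means on the 3 arrays, so they had been scaled. Of 22690 probe sets, 64 are controls. The platform annotation gave 1 gene to 20393 probe sets and several to 691, and 20364 of the former matched the RefSeq table of GRCm38.p6, used for names.

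Arrays were set to a common 2% trimmed mean. The floor was the 40th percentile of scaled values, and log2 was taken after flooring. A gene was read by its probe set with the highest mean floored log2 signal, control probe sets aside; Gapdh has only control probe sets of its own. No test was possible with 1 array per time, and the number of arrays limits the precision. The alternatives were other scalings, floors, a pseudocount equal to the floor, the median over probe sets, leaving out suffixes that mark cross-hybridisation (_a_at was kept) and folds of 1.5 and 3; scaling to the spike controls was added after seeing the data. Counting was tested on simulated data.

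The genes and lists were chosen with earlier results of these data known. Named were all 9 genes, list genes at least 2-fold apart in any comparison, 14 list genes regardless of value where measured (Trf had no probe set of its own), the 3 nearest genes to each gene called, and Gapdh and Actb. Computations used Python 3.11.15, numpy 2.4.6 and pandas 2.3.3.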

Additional observations from a re-analysis of the deposited data

Results flagged for a closer look

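The prokaryotic spike controls, which no comparison of the report uses as a measurement, were brighter on the 12 h array. All 18 of their probe sets were higher than at 0 h, by a median of 2.52-fold (range 1.68 to 3.86), and higher than at 2 h by a median of 2.69-fold. Between 2 h and 0 h the median ratio was 0.99, with 8 of 18 higher. The cause was not tested.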

How the results depend on the processing

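No paired analysis was possible because each time has 1 array. Over the scalings, floors, probe set rules and folds chosen at the start, 49 of 60 counts of genes called stayed within 1.5 times the reported count, and 217 of 231 gene and list values moved by less than the SD between probe sets. Part of this was fixed in advance. The deposited values differed from the scaled ones only by factors of 0.999 to 1.002. Probe set rules could not move Lcn2, Saa3 or Slc11a1, each read by 1 probe set. Of the 2 genes higher at 2 h, 1 (Saa3) was left at 3-fold and with the median over probe sets. The 1 gene lower at 2 h (Slc40a1) fell to 0 with arrays set to their medians, quantile normalization, the floor at the 60th percentile, a pseudocount, the median over probe sets and 3-fold. Of 0 genes lower at 12 h against 0 h, 1 (Slc40a1) was called at 1.5-fold and with the median over probe sets. Of 3 genes higher at 12 h against 2 h, 1 (Lcn2) was left at 3-fold.

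With arrays set to the spike controls, 2 genes were higher at 12 h against 0 h and 3 were lower, beside 0.54% and 68% of all genes; against 2 h, 1 was higher and 3 were lower, beside 0.26% and 65.1%. Of the gene differences that were at least 2-fold as reported, only that of Slc11a1 at 12 h against 2 h changed sign. It was -0.33 in place of 1.04 on the log2 scale. Smaller positive differences at 12 h turned negative too: Slc11a2, Fth1 and Slc40a1 against 2 h, and Fth1 and Tfrc against 0 h. The cause was not tested beyond the scaling itself. Signals near or under the floor limit Lcn2, Saa3 and Hp most.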
